A study of Homo sapiens with 10 samples.

Results

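The genes described here are the aminoacyl-tRNA synthetases, the enzymes that charge tRNA, and the 3 scaffold proteins that hold several of them together. They were chosen by symbol, and 39 of the 22626 rows of the deposited table carry one of the chosen symbols. By name they divide into 19 cytosolic synthetase genes, 16 mitochondrial synthetase genes, the 3 scaffold or accessory genes AIMP1, AIMP2 and EEF1E1, and TARS3, a second threonyl-tRNA synthetase gene outside both name series. All 39 passed the filter on low counts and were among the 14936 rows tested. The genes were proposed as a group with results of the same libraries in view, so the comparison of high glucose with control is given for them as a description.

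RNA was sequenced from ARPE-19, an established human line of retinal pigment epithelium (RPE), after 48 h in 1 of 2 media. Control medium held 5.5 mM glucose with 32 mM mannitol (n = 5), a sugar alcohol that balances the dissolved molecules, and high glucose (HG) medium held 37.5 mM glucose (n = 5). The labels name no genotype, transgene or further agent, and they do not say whether the 5 samples of a group came from separate cultures, so p-values measure only the spread between these samples.

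An aminoacyl-tRNA synthetase joins an amino acid to the tRNA that carries its anticodon, at the cost of ATP, and the charged tRNA is what the ribosome reads. Cytosolic and mitochondrial ribosomes are served by separate enzymes for most amino acids. The mitochondrial enzymes are encoded in the nucleus and imported, while GARS1 (glycine) and KARS1 (lysine) make both forms from 1 gene. When uncharged tRNA builds up, the kinase GCN2, encoded by EIF2AK4, phosphorylates the initiation factor eIF2α, translation of the transcription factor ATF4 goes up, and ATF4 switches on genes of amino acid supply, many cytosolic synthetases among them.

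The libraries held between 32448991 and 45864176 counts. Levels are given as CPM, a gene's counts relative to the library total after TMM scaling, or as FPKM where genes are compared with each other, since FPKM is also divided by transcript length. TXNIP, a gene that responds to glucose, was at 0.809 to 1.23 CPM in control and 5.38 to 12.9 CPM in HG libraries, in the direction of the labels. Of 12 RPE marker genes, 8 had a mean of at least 1 FPKM, while RPE65 and TTR, which define mature RPE, were under 0.1 FPKM. The summed FPKM of these markers was 1550 to 1930 in control and 992 to 1300 in HG libraries, most of it from the keratins KRT8 and KRT18. BEST1, among the 8, had means of 35.9 FPKM in control and 1.18 FPKM in HG, with single libraries from 0.237 to 120 FPKM. The means of MITF, OTX2 and TJP1 were 11.4, 33.9 and 4.4 FPKM in control and 10, 31.6 and 4.09 FPKM in HG. All 4 mesenchymal markers were detected, with sums of 2890 to 3020 and 3010 to 3320 FPKM that are mostly VIM, while the means of COL1A1, FN1 and ACTA2 were lower in HG, and no blood, endothelial or other epithelial marker reached 1 FPKM (0 of 2 in each list). The part of these differences in the values below was not tested, and in bulk RNA fewer cells of a type and less RNA per cell cannot be told apart. In control library 2 and HG library 1, counts rose with the GC content of a gene. The slopes were 0.171 and 0.189 log2 units per 10 percentage points. They were -0.045 to -0.00474 in the other control libraries and -0.0889 to -0.0262 in the other HG libraries, a difference that leaving out both libraries does not remove. Calls of members that changed when both libraries were left out are given with and without them.

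Several cytosolic synthetase mRNAs, a few mitochondrial ones and 1 scaffold mRNA were higher in HG. A gene is called here when its adjusted p was below 0.05 in edgeR's quasi-likelihood test over all rows. Of the 39 genes, 13 were called higher in HG and 0 were called lower, beside 7.62% of all rows tested called higher and 7.8% called lower. At an unadjusted p under 0.05 edgeR found 1 of them lower (HARS1), and DESeq2 called 0 lower. Among the cytosolic genes 9 of 19 were called higher, among the mitochondrial genes 3 of 16, among the accessory genes 1 of 3, and TARS3 was not called. Without HG library 1 and control library 2, 17 of the 39 were called higher and 1 lower, beside 13.3% and 13.8% of the 14899 rows tested in that fit. The median log2 fold change was 0.20 over the cytosolic genes and -0.03 over the mitochondrial genes, beside 0.00132 over all rows tested. A positive fitted change was found for 17 of 19 cytosolic and 7 of 16 mitochondrial genes. The difference between the classes itself was not tested.

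**Figure D1:**
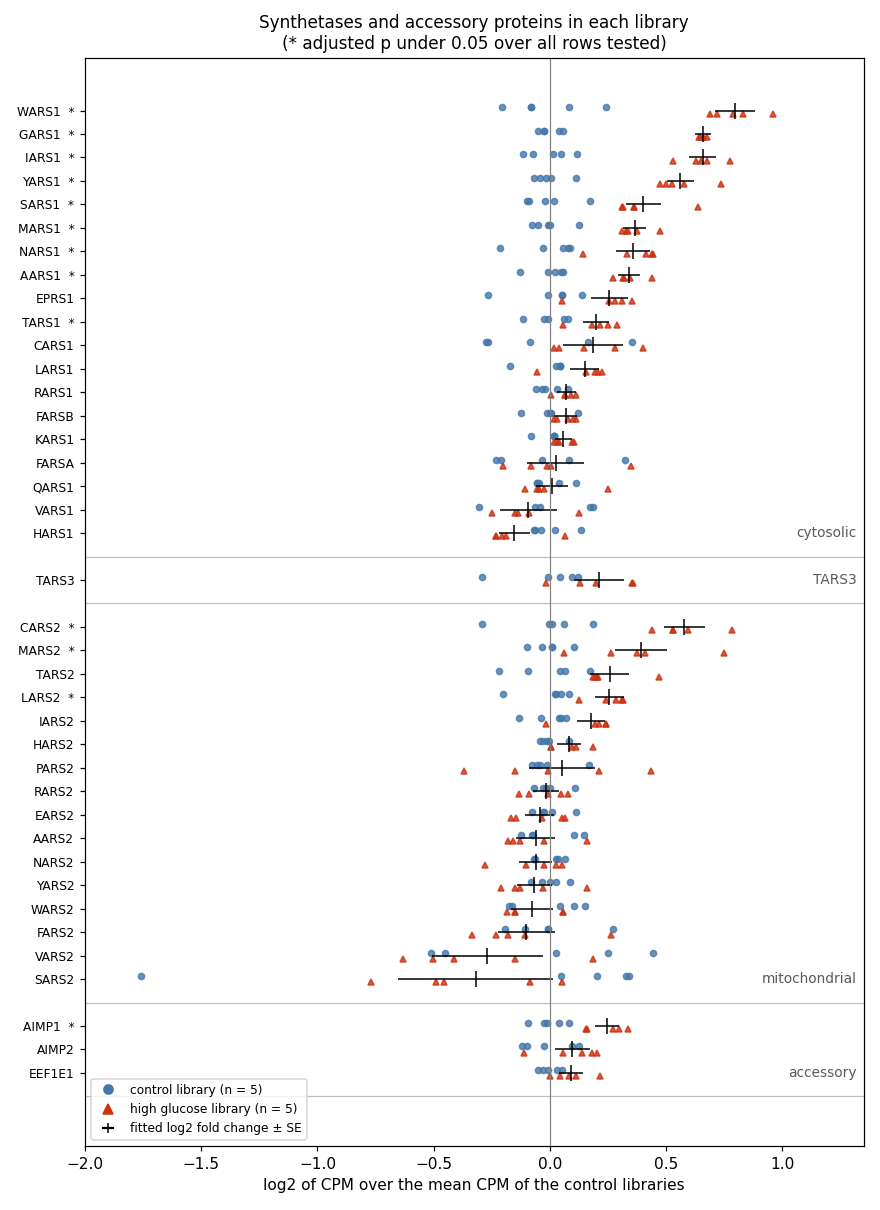
Each point is 1 library (control n = 5, HG n = 5) and gives the log2 of a gene's CPM over the mean CPM of the control libraries, with the fitted log2 fold change ± SE as a black bar and an asterisk where the adjusted p was below 0.05. HG points lie to the right of all control points from WARS1 to AARS1 and in CARS2, TARS2, LARS2 and AIMP1, overlap them in the other genes, and control library 4 stands far to the left for SARS2.

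The strongest change belonged to WARS1, the tryptophanyl-tRNA synthetase, which is also known as a gene induced by interferon gamma. Its level was 99.1, 121, 135, 108 and 108 CPM in the control libraries and 222, 197, 203, 184 and 188 CPM in the HG libraries, a log2 fold change of 0.80 ± 0.086 (SE) or 1.74-fold. GARS1, whose gene supplies glycyl-tRNA synthetase to both compartments, was at 159, 156, 159, 168 and 166 CPM in control and 258, 252, 255, 255 and 253 CPM in HG. Its 10 values were the tightest of the genes with a large change, with a log2 fold change of 0.66 ± 0.035 (SE) or 1.58-fold. IARS1, the isoleucyl enzyme of the multisynthetase complex, was at 125, 129, 140, 137 and 147 CPM in control and 196, 232, 210, 217 and 213 CPM in HG, a log2 fold change of 0.66 ± 0.058 (SE). In these 3 genes every HG library lay well above every control library. They are also the only members that were called with a fold change above 1.5, beside 1.67% of all rows tested that were called higher with such a fold and 3.69% in either direction.

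A second group of cytosolic enzymes was called with changes between 1.27-fold and 1.48-fold. YARS1, the tyrosyl enzyme, was at 114, 129, 118, 116 and 120 CPM in control and 199, 172, 178, 166 and 169 CPM in HG (log2 fold change 0.56 ± 0.057, SE). SARS1, the seryl enzyme, was at 165, 199, 179, 174 and 166 CPM in control and 275, 227, 227, 220 and 219 CPM in HG (0.40 ± 0.074). MARS1, the methionyl enzyme, was at 128, 147, 134, 130 and 135 CPM in control and 187, 170, 169, 167 and 175 CPM in HG (0.37 ± 0.049). HG library 1 was the highest HG library in all 3 of these genes, and the groups did not overlap with it or without it. NARS1, the asparaginyl enzyme and the most abundant cytosolic synthetase per transcript length, was at 264, 232, 284, 286 and 280 CPM in control and 297, 365, 339, 359 and 366 CPM in HG (0.36 ± 0.074), with HG library 1 closest to the control range. AARS1, the alanyl enzyme, was at 162, 184, 176, 183 and 180 CPM in control and 240, 225, 220, 214 and 221 CPM in HG (0.34 ± 0.048). Across the 39 genes, all HG libraries lay above all control libraries in 12 and below in 0, beside 6.74% and 6.91% of all rows tested.

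TARS1, the threonyl enzyme, was the ninth cytosolic gene called and the weakest of them, at 189, 167, 178, 191 and 180 CPM in control and 188, 210, 205, 215 and 221 CPM in HG. Its groups overlapped through HG library 1, its log2 fold change was 0.20 ± 0.054 (SE), and it was called in only 3 of the 10 fits that left out 1 library. EPRS1, which carries the glutamyl and the prolyl enzyme in 1 protein, stood at 0.26 ± 0.079 and was not called, with 126 to 167 CPM in control and 157 to 194 CPM in HG. Without HG library 1 and control library 2, EPRS1 and LARS1 (leucine) were called too, which brought the cytosolic count from 9 to 11.

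The other cytosolic genes differed little between the media. CARS1 (cysteine) had a log2 fold change of 0.19 ± 0.13 (SE), with control libraries that ran from 77.6 to 120 CPM across nearly the whole HG range of 95.1 to 124 CPM. LARS1 stood at 0.15 ± 0.064, RARS1 (arginine) and FARSB (the beta subunit of the phenylalanyl enzyme) each at 0.07, KARS1 at 0.06, FARSA (its alpha subunit) at 0.03 and QARS1 (glutamine) at 0.01. KARS1 had the smallest SE of these genes, with 137 to 147 CPM in control and 147 to 156 CPM in HG. VARS1 (valine) had a log2 fold change of -0.09 ± 0.12 at a level of only 4.03 to 5.65 CPM. HARS1, the histidyl enzyme, had the lowest value of the class, -0.15 ± 0.067, with 95.7 to 110 CPM in control and 85.4 to 105 CPM in HG. HG library 1 alone held the highest of these HG values, and without it HARS1 was called lower.

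The changed enzymes were drawn from both structural families of synthetases and from inside and outside the multisynthetase complex, an assembly of cytosolic synthetases on 3 scaffold proteins. Of the cytosolic class I genes 4 of 9 were called higher and of the class II genes 5 of 9, EPRS1 belonging to both classes. Among the 7 cytosolic genes of the complex, IARS1 and MARS1 were called, with a median log2 fold change of 0.15 over the 7. Among the 12 outside it 7 were called, with a median of 0.27. Without HG library 1 and control library 2, EPRS1 and LARS1 were called as well, which made 4 of 7 in the complex, 7 of 12 outside it, 5 of 9 in class I and 5 of 9 in class II. Of the scaffolds, AIMP1 was at 71, 67.1, 73.6, 70.4 and 75.7 CPM in control and 79.9, 86.3, 79.6, 90.4 and 88 CPM in HG, a log2 fold change of 0.25 ± 0.053 (SE), and was called. AIMP2 (0.10 ± 0.077) and EEF1E1 (0.09 ± 0.053) were not called, and their control and HG libraries overlapped.

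Promoter sequence was set beside these calls, since ATF4 with a C/EBP partner binds DNA at the element TGATGNAA. RefSeq promoter windows of GRCh38.p14, 250 bases before to 50 bases after the annotated start, were at hand for 33 of the 39 genes, some of which have more than 1 start, 45 windows in all. The element, read on both strands, lay in a window of 8 of the 33 genes (24.2%), beside 4.46% of the 27305 gene symbols with a window. By window it lay in 8 of 45 (17.8%), beside 3.62% of all 35116 windows. Of the 8 cytosolic genes that were called and have a window, 6 held it, AARS1, GARS1, IARS1, MARS1, NARS1 and TARS1, while SARS1 and WARS1 did not. CARS1 was the 1 holder among the 8 cytosolic genes with a window that were not called, and YARS2 the 1 among the 11 such mitochondrial genes. None of the 3 mitochondrial genes called (0 of 3) and none of the accessory genes (0 of 3) held it. Of the genes called in addition without HG library 1 and control library 2, EPRS1, IARS2 and TARS2 had windows without the element. LARS1 had no window, and HARS1, called lower in that fit, did not hold the element. A match says only that these letters are in the window. The 8 stretches are printed to show the element in its setting, 5′ to 3′ on the strand of the gene, ending no more than 30 bases after the start, with the element in capitals. TTGCATCA and TTTCATCA are the element read from the other strand.
AARS1, chr16:70289660-70289719, minus strand, element beginning 187 bases before the start: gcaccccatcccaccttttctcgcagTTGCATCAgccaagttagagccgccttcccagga
CARS1, chr11:3057394-3057451, minus strand, 2 bases before: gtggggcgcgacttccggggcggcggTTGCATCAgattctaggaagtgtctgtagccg
GARS1, chr7:30594819-30594878, plus strand, 33 bases before: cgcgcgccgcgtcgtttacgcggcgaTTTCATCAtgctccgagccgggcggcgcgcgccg
IARS1, chr9:92293677-92293736, minus strand, 13 bases before: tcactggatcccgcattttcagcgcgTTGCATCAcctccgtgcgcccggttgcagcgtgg
MARS1, chr12:57488038-57488097, plus strand, 4 bases before: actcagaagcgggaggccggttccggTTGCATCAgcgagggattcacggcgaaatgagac
NARS1, chr18:57621807-57621848, minus strand, 14 bases after: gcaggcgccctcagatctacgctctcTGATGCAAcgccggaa
TARS1, chr5:33440941-33440994, plus strand, 2 bases after: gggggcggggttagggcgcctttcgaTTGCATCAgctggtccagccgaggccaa
YARS2, chr12:32756061-32756120, minus strand, 197 bases before: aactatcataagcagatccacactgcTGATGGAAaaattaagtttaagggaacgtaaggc

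The form TGATGCAA, which is contained in TGATGNAA, lay in a window of 6 of the 33 genes (18.2%), AARS1, CARS1, IARS1, MARS1, NARS1 and TARS1, beside 1.08% of all symbols. In CARS1, IARS1, MARS1, NARS1 and TARS1 it began within 14 bases of the start, in AARS1 farther upstream. GARS1 and YARS2 held other letters at the open position. The cAMP response element TGACGTCA, searched for comparison, lay in a window of 1 of the 33 genes, AIMP2, beside 2.25% of all symbols. The 6 genes LARS1, VARS1, YARS1, TARS3, AARS2 and VARS2 were not searched.

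Only a few mitochondrial synthetases were higher in HG. CARS2, the cysteinyl enzyme of mitochondria, which is also known to make cysteine persulfides, was at 112, 156, 143, 137 and 138 CPM in control and 236, 186, 198, 207 and 198 CPM in HG, a log2 fold change of 0.58 ± 0.089 (SE) or 1.49-fold. LARS2, the leucyl enzyme, was at 40.1, 48.8, 47, 47.7 and 46.8 CPM in control and 54.5, 57.3, 50.3, 56.2 and 57.1 CPM in HG (0.26 ± 0.063). In both genes all HG libraries were above all control libraries. MARS2, the methionyl enzyme, was called at 0.39 ± 0.11, with 17.4, 15.1, 15.8, 16.3 and 16.3 CPM in control and 16.9, 19.4, 21, 27.2 and 21.5 CPM in HG. HG library 1 fell inside its control range, and the call was kept in only 1 of the 10 fits that left out 1 library, the one without HG library 1.

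TARS2 (threonine) and IARS2 (isoleucine) came next. TARS2 was at 33.2 to 43.6 CPM in control and 44 to 53.6 CPM in HG, 0.26 ± 0.084 (SE) on the log2 scale, and was not called although its groups did not overlap. IARS2 was at 119 to 137 CPM in control and 129 to 154 CPM in HG, 0.18 ± 0.060. Both were called when HG library 1 and control library 2 were left out, which brought the mitochondrial count from 3 to 5. For the remaining 11 mitochondrial genes the control and HG libraries overlapped. Their fitted changes ran from 0.08 in HARS2 (histidine) through 0.05 in PARS2 (proline), -0.02 in RARS2 (arginine), -0.04 in EARS2 (glutamate), -0.06 in AARS2 and NARS2, -0.07 in YARS2 and -0.08 in WARS2 to -0.10 in FARS2 (phenylalanine), -0.27 in VARS2 and -0.32 in SARS2.

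The values of SARS2 and VARS2 carry the largest errors of the 39 genes. SARS2, the seryl enzyme of mitochondria, was at 6.97, 7.6, 7.67, 1.79 and 6.27 CPM in control and 4.42, 4.31, 6.29, 3.56 and 5.72 CPM in HG, so control library 4 lay far under the other 4. The log2 fold change of -0.32 ± 0.33 (SE) became -0.55 without control library 4, and SARS2 was called in neither fit. In GENCODE release 29 SARS2 lies at chr19:38915266-38930896 and shares 57% of its 3231 exonic bases with other genes, 1492 bases with the gene AC011455.2 on its own strand and 349 bases with MRPS12 on the other. VARS2 was at 1.39 to 2.7 CPM in control and 1.28 to 2.26 CPM in HG, on 42 to 105 counts a library, and shares 22% of its exonic bases with GTF2H4 on the same strand. Both genes can therefore hold reads of a neighbour, and without them the median of the mitochondrial genes was 0.02 in place of -0.03.

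The other members that share more than 8% of their exonic bases are AIMP2 (28.9% of exonic bases, with EIF2AK1 on the other strand), EEF1E1 (18.65%, with a read-through gene), HARS2 (15.8%, in part with HARS1, which starts next to it in the other direction), MARS1 (13.3%, with ARHGAP9 and DDIT3 on the other strand), AIMP1 (11.6%), WARS1 (10.6%) and HARS1 (8.38%). A further 13 members share between 0.517% and 6.46%. The strand setting of the counting is not given in the sources used here. DDIT3, which encodes the stress factor CHOP, was itself higher in HG, at 23.4 ± 4.22 CPM (SD, n = 5) in control and 40.1 ± 6.98 CPM (SD, n = 5) in HG, and its part in the MARS1 value was not tested. It shares 355 of the 7028 exonic bases of MARS1.

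Class means were also taken within each library. The mean log2 CPM of the 19 cytosolic genes, less its control mean, was -0.0432, 0.0197, -0.0067, 0.0364 and -0.0063 in the control libraries and 0.3154, 0.2632, 0.2392, 0.2373 and 0.2439 in the HG libraries. For the 16 mitochondrial genes it was -0.0045, 0.0526, 0.0058, -0.1179 and 0.064 in control and 0.1321, 0.035, 0.0478, 0.0361 and 0.0276 in HG. The cytosolic groups stood clear of each other and the mitochondrial groups overlapped. Without SARS2 and VARS2 the mitochondrial groups no longer overlapped, at -0.0655 to 0.0373 in control and 0.0665 to 0.1551 in HG. This omission was chosen after seeing the data. It takes out the mitochondrial genes with the largest shares of shared exonic bases, which also had the lowest fitted changes of the class (-0.32 and -0.27). Without SARS2 alone the groups overlapped, at -0.0292 to 0.0541 in control and 0.0241 to 0.16 in HG. With only CARS2 left out they overlapped, at -0.1264 to 0.0671 in control and -0.0064 to 0.0883 in HG. The cytosolic mean less the mitochondrial mean ran from -0.0703 to 0.1543 in control and from 0.1834 to 0.2282 in HG, and with SARS2 left out from -0.0604 to 0.0576 and from 0.1554 to 0.2199. The accessory genes were at -0.0434 to 0.04 in control and 0.0935 to 0.2011 in HG. Their mean over the HG libraries was 0.1439, beside 0.2598 for the cytosolic and 0.0557 for the 16 mitochondrial genes. In HG library 1 they lay below the mitochondrial genes, at 0.0995 beside 0.1321.

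**Figure D2:**
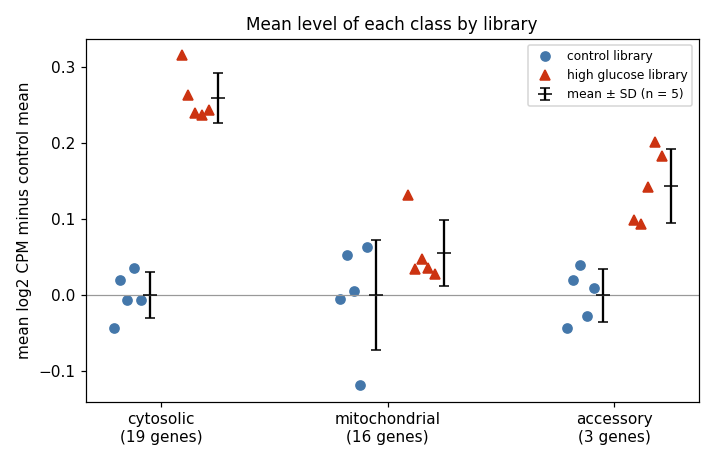
Each point is 1 library and gives the mean log2 CPM over the genes of a class less the mean of the control libraries, with the mean ± SD (n = 5) beside each group. HG libraries lie at 0.2373 to 0.3154 for the cytosolic class and at 0.0276 to 0.1321 for the mitochondrial class, where they overlap the control libraries. The means without SARS2 and VARS2, the mitochondrial genes with the lowest fitted changes, are not drawn. Their groups do not overlap, while with only SARS2 left out the groups do.

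Summed over genes, the 39 members took 3285 ± 73 CPM in control and 4059 ± 55 CPM in HG (SD, n = 5, without TMM scaling), a ratio of 1.24. Cytosolic genes made up most of this, with 2555 ± 53 and 3205 ± 49 CPM, a ratio of 1.25. The mitochondrial genes went from 597 ± 24 to 704 ± 10, a ratio of 1.18. A sum weights abundant genes. Without CARS2 their sum went from 461 ± 15 to 498 ± 15, a ratio of 1.08.

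Per transcript length, CARS2 was unlike the rest of its class. The median level in control was 45.9 FPKM over the cytosolic genes (range 1.11 to 90.7 FPKM) and 7.59 FPKM over the mitochondrial genes (range 0.457 to 72.1 FPKM). CARS2 stood at 72.1 ± 7.83 FPKM in control and 109 ± 7.39 FPKM in HG (SD, n = 5), at the level of the abundant cytosolic enzymes, followed in its class by IARS2 at 34.2 FPKM in control. At the other end of the cytosolic class were FARSB at 7.67 ± 0.488 FPKM and VARS1 at 1.11 ± 0.144 FPKM in control. FARSA, which pairs with FARSB in 1 enzyme, was listed at 44.3 ± 6.84 FPKM. The gap between these partners was smaller in CPM, which is not divided by length, at 86.3 for FARSA and 56.2 for FARSB in control. TARS3 was at 2.02 FPKM in control and 2.42 FPKM in HG, with a log2 fold change of 0.21 ± 0.11 (SE) in CPM.

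**Figure D3:**
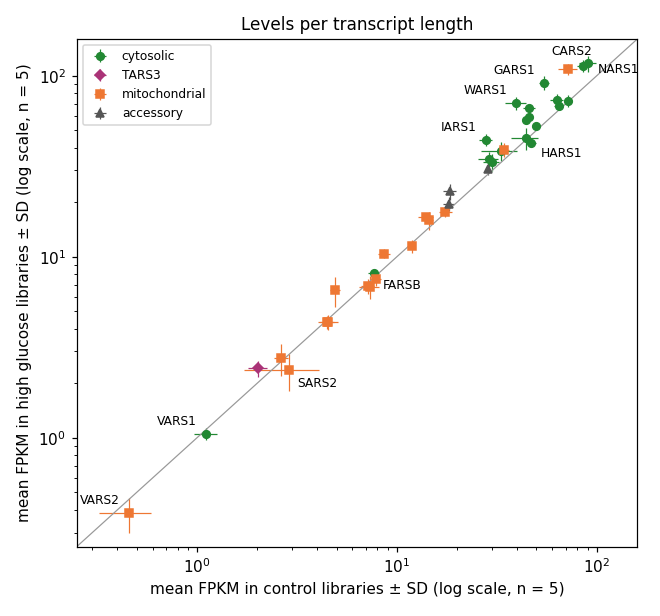
Mean FPKM in HG against mean FPKM in control for the 39 genes, both on log axes, with bars of ± SD over 5 libraries and the diagonal of equal levels. WARS1, GARS1 and IARS1 lie above the diagonal among the cytosolic genes, CARS2 lies among the most abundant genes at 72.1 and 109 FPKM, and VARS1 and VARS2 sit at the low end.

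Each amino acid with a separate enzyme for either compartment allows the 2 mRNAs to be compared inside a library, where library size cancels. Over 14 such amino acids, only the cytosolic gene was called higher for 7 (tryptophan, tyrosine, isoleucine, asparagine, alanine, serine and threonine), only the mitochondrial gene for leucine and cysteine, both genes for methionine, and neither for phenylalanine, arginine, valine and histidine. Without HG library 1 and control library 2, both genes were called higher for isoleucine, threonine and leucine too, so that only the cytosolic gene was called higher for 5 amino acids, both for 4, only the mitochondrial gene for cysteine, and neither for 4, among them histidine, whose HARS1 was called lower in that fit. The ratio of cytosolic to mitochondrial CPM had a higher mean in HG for 10 of the 14, and for 9 without HG library 1 and control library 2, methionine then having a change of 0.967 times. For 5 of them every HG library was above every control library, and for 0 every HG library was below.

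With all libraries in, the ratio of tryptophan moved most, while without control library 4 that of serine moved more. WARS1 over WARS2 was 8.39 ± 1.46 in control and 15.3 ± 2.07 in HG (SD, n = 5), with ranges of 6.68 to 9.91 and 12.9 to 17.9. YARS1 over YARS2 was 4.4 ± 0.167 and 6.82 ± 0.412, and IARS1 over IARS2 was 1.04 ± 0.047 and 1.45 ± 0.0699. In these 3 pairs the cytosolic mRNA was called higher and the fitted changes of the mitochondrial mRNAs were -0.08 ± 0.091 (WARS2), -0.07 ± 0.074 (YARS2) and 0.18 ± 0.060 (IARS2, SE), IARS2 being called without HG library 1 and control library 2. NARS1 over NARS2 was 12.5 ± 0.704 and 16.8 ± 0.927, and AARS1 over AARS2 was 7.58 ± 0.495 and 10 ± 0.686. EPRS1 over EARS2, outside the 14 since EPRS1 serves both glutamate and proline, was 4.03 ± 0.366 and 4.96 ± 0.318.

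Methionine, threonine and leucine kept ratios near those of the control libraries, with HG means 1.01, 0.956 and 0.924 times the control means and overlapping libraries. Histidine and cysteine had lower means in HG, 0.85 and 0.744 times control, again with overlap. For cysteine CARS1 over CARS2 was 0.702 ± 0.225 in control and 0.523 ± 0.0791 in HG, so the mitochondrial mRNA was the larger of the pair by mean CPM. The mean ratio of the other 13 amino acids was above 1 in both groups. The serine ratio rested on control library 4 with its low SARS2 value, at 39.4 ± 32.4 in control (SD, n = 5) and 1.27 times that mean in HG. Without that library it was 24.9 ± 1.6 in control (SD, n = 4), the HG mean was 2.01 times as high, and the HG range of 36.1 to 62.2 lay above the control range of 23.4 to 26.5. In FPKM the ratio had a higher mean in HG for 9 of the 14 amino acids, methionine having moved to 0.996, and the same 5 amino acids had groups that did not overlap.

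**Figure D4:**
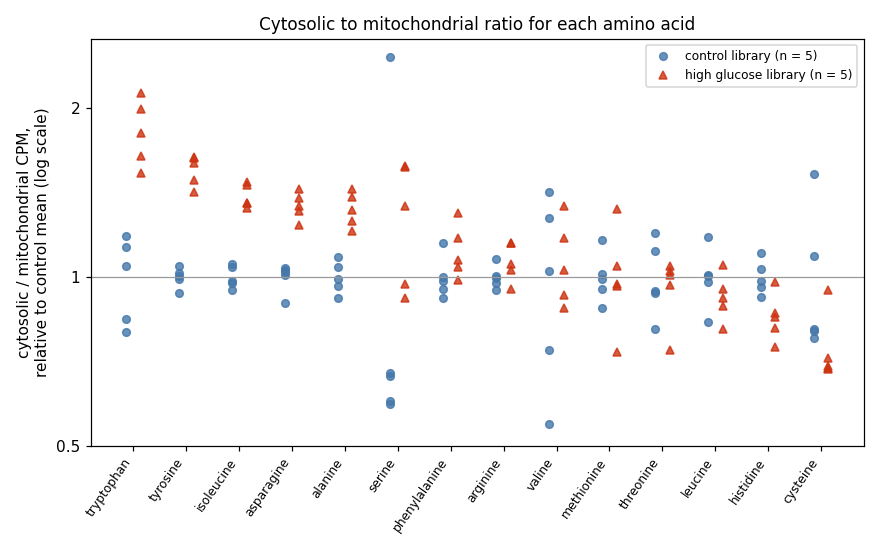
Ratio of cytosolic to mitochondrial CPM in each library (control n = 5, HG n = 5), divided by the mean ratio of the control libraries, on a log axis, for 14 amino acids ordered by the change of the mean. The HG libraries of tryptophan, tyrosine, isoleucine, asparagine and alanine lie above all control libraries, from serine to cysteine the groups overlap, and control library 4 is the highest point of serine.

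Genes that act with the synthetases gave a mixed record, and since 7.62% of all rows tested were called higher and 7.8% lower, nothing is read from 1 call in a short list. In the list of 10 genes that sense uncharged tRNA or act on eIF2α, ATF4 was called higher, at 283 ± 23.7 CPM in control and 373 ± 37.4 CPM in HG (SD, n = 5; log2 fold change 0.40 ± 0.077, SE; edgeR adjusted p = 0.00583). EIF2AK3, the kinase PERK of the endoplasmic reticulum, was called lower in that list (log2 fold change -0.39, edgeR adjusted p = 0.0282), and the other 8 were not called. EIF2AK4 stood at 41.6 ± 4.02 and 39.5 ± 4.8 CPM (edgeR adjusted p = 0.686). These are mRNA levels, and phosphorylation of eIF2α and the amount of ATF4 protein were not measured in these files.

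Among 30 known ATF4 targets outside the synthetases, 20 were called higher, 2 lower and 8 were not called, beside 7.62% higher and 7.8% lower of all rows tested, with a median log2 fold change of 0.44. ASNS, asparagine synthetase, had a log2 fold change of 1.72, PSAT1 of serine synthesis 1.25 and TRIB3, a feedback inhibitor of ATF4, 1.27. The 2 lower genes were SLC7A5, a transporter of large neutral amino acids (-0.22), and ALDH18A1 of proline synthesis (-0.18). The median over all 19 cytosolic synthetases was 0.20. In the list of 6 genes of tRNA export and repair of mischarged tRNA, XPOT, the carrier of tRNA out of the nucleus, was called higher at 136 ± 11.4 and 178 ± 14.4 CPM (log2 fold change 0.39 ± 0.074, SE; edgeR adjusted p = 0.00489) and 5 were not called.

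Downstream of charging, 9 tested elongation factor genes held 0 edgeR calls in either direction, 1 at an unadjusted p under 0.05 and 1 DESeq2 call (GFM1), with a median log2 fold change of 0.08. Of 12 genes that process, modify or complete charged mitochondrial tRNA, MTO1 was called higher (0.28, edgeR adjusted p = 0.0176) and ELAC2 lower (-0.19, edgeR adjusted p = 0.0279). The mitochondrial ribosomal proteins, users of the charged mitochondrial tRNAs, had 11 of 78 called higher and 1 lower, beside the same 7.62% and 7.8% of all rows, with a median of 0.13.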

How the data were processed

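Total RNA of 10 ARPE-19 samples was sequenced. The authors deposited whole-number read counts per gene, without normalization, and FPKM values of the same libraries, scaled by the authors for the length of the transcript and the size of the library. The submitters' processing notes name fastp 0.20.1, HISAT2 2.2.1 and GRCh38. The counting program and strand setting are not given in the sources used here. The 5 HG columns are known only by group, and their numbers are column numbers. The totals of each library are between 32448991 and 45864176 counts. Counting error is largest for the members SARS2, VARS2 and VARS1 and for other genes near 1 CPM or below, such as TXNIP in control.

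From the counts, HG was compared with control with edgeR 4.0.16 under R 4.3.3, using filterByExpr, TMM scaling, the quasi-likelihood test and Benjamini-Hochberg adjustment over 14936 rows. SE is that of the fitted log2 fold change. Log2 CPM used a prior count of 2. The comparison was repeated without a filter on counts, with at least 10 counts in every library, with the library size as the only scaling or RLE in place of TMM, with DESeq2 1.42.0, limma 3.58.1 on log2(FPKM + 1), on log2(FPKM + 0.1) and with a mean of at least 1 FPKM, 1 surrogate variable from sva 3.50.0, removal of trends on GC content and length (lowess, span 0.3), each library left out in turn, and HG library 1 and control library 2 left out together. Leaving out SARS2 and VARS2, and control library 4 for serine, was added after seeing the data. Steps were tested on simulated data.

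The members, pathway lists, motifs and alternatives were chosen with earlier results of these data known. All members were named. Of the other genes, ATF4, EIF2AK4 and those called within short lists were named, and a few ATF4 targets and DDIT3 after their values were seen. Gene positions and shared exons come from GENCODE release 29 and promoters from RefSeq. Protein sequences were not analysed here. The result of 1 further list is not reported here.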

Additional observations from a re-analysis of the deposited data

Results flagged for a closer look

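Of 84 groups of 5 libraries examined (the 39 genes and the class means, in each medium), 12 held 1 library far from the other 4 by Dixon's ratio, where chance gives about 4.2. HG library 1 was that library in 7 of the 12. It was the highest HG library in HARS1 (105 CPM, the others 85.4 to 88.1), QARS1 (220 CPM, the others 172 to 182), SARS1 (275 CPM, the others 219 to 227) and TARS2 (53.6 CPM, the others 44 to 44.7), and the lowest in LARS1 (154 CPM, the others 178 to 187) and IARS2 (129 CPM, the others 149 to 154). It also had the highest mean level of the mitochondrial class in HG (0.132, the others 0.0276 to 0.0478). The annotated GC content of SARS1, TARS2 and QARS1 is 51.5%, 54.6% and 55.2%, that of HARS1 46.8%, and that of LARS1 and IARS2 41.5% and 43.8%. The median GC content of the 39 genes is 49.9%. The part of the GC trend of HG library 1 in these values was not tested gene by gene.

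Control library 2 was the lowest control library in LARS1 (142 CPM, the others 163 to 165). Control library 1 was the lowest in KARS1 (137 CPM, the others all 147) and LARS2 (40.1 CPM, the others 46.8 to 48.8). Control library 4 was the highest in PARS2 (7.6 CPM, the others 6.4 to 6.7) and the lowest in SARS2 (1.79 CPM, the others 6.27 to 7.67).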

How the results depend on the processing

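Of the 13 genes called higher, 11 were called in all 21 alternatives, TARS1 and MARS2 being the exceptions, and all 13 kept a positive fitted change throughout. The 9 cytosolic calls became 8 with limma on FPKM, 10 with DESeq2 or at least 10 counts, 11 with HG library 1 and control library 2 left out or with trends removed, and 12 with a surrogate variable. The 3 mitochondrial calls became 5 with DESeq2, with both libraries left out, with trends removed and with a surrogate variable. HARS1 was the 1 gene called lower, in place of 0, without both libraries and with a surrogate variable. The mitochondrial median of -0.03 turned positive in 2 settings, to 0.0063 with a mean of at least 1 FPKM and to 0.0166 without SARS2 and VARS2. Over all rows, 2303 called became 4035 without both libraries, 3988 with trends removed and 4935 with a surrogate variable, and 551 called with a fold above 1.5 became 261 with limma on log2(FPKM + 1) and 247 with a mean of at least 1 FPKM. Leaving out 1 library at a time gave 8 to 11 cytosolic, 2 to 4 mitochondrial and 1 accessory call, 0 to 1 called lower (HARS1, without HG library 1), a cytosolic median of 0.1724 to 0.2889, a mitochondrial median of -0.037 to -0.005, and 1648 to 2993 called rows, 461 to 618 of them with a fold above 1.5. The cause of these changes was not tested. No paired analysis was possible because the HG columns carry numbers that match no replicate of the labels. Depth limits VARS2, with 42 to 105 counts a library.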
